A study of Homo sapiens with 12 samples.

Results

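RAD18 is the RING-type E3 ubiquitin ligase of post-replication repair, and its knockdown was 1 of 543 in a genetic interaction screen of K562 cells, an established human leukaemia line, run with and without the PARP inhibitor niraparib. Every construct of the lentiviral library carried 2 sgRNAs for CRISPR interference, which represses a gene at its promoter without cutting it. RAD18 constructs were those in which the gene name of a sgRNA was RAD18, in the first or the second position: 4560 of 1301881 constructs. Of these, 220 paired a RAD18 sgRNA with a non-targeting sgRNA, 4336 paired it with a sgRNA of one of 542 other genes, and 4 held RAD18 sgRNAs on both sides. The rule also asked for UBE2N, UBE2V2, REV1 and REV3L, and 0 of these 4 genes were in the library, so RAD18 alone is described.

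Screens were made in 2022 and 2023, each with 2 replicate cultures of the same library. The niraparib arm received 2 µM of drug for 3 days in 2022, and 2 µM raised to 3 µM over 4 days in 2023, followed by drug-free growth. The reference arm came from the same culture and received the vehicle, DMSO. Both arms were collected 18 days after transduction in 2022 and 19 days after it in 2023, and the T0 sample of each culture was taken on day 9, before dosing. All cells were the K562 CRISPRi line under puromycin selection for the library. Doses, drug days and harvest days differed together between the screens, so their parts cannot be told apart. All 12 libraries are counts of constructs in genomic DNA. RAD18 mRNA and protein were not measured, and the degree of silencing by its sgRNAs is not known from these data.

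As background, RAD18 acts with the E2 enzymes UBE2A and UBE2B to attach a single ubiquitin to PCNA, the sliding clamp of replication, where forks have stalled. The modified clamp recruits translesion polymerases, which copy past the lesion. HLTF and SHPRH, with UBE2N and UBE2V2, lengthen the ubiquitin to a chain that directs template switching, and the USP1 protease with its partner WDR48 takes the ubiquitin off again. Niraparib blocks PARP1 and PARP2, the enzymes that build poly(ADP-ribose) at DNA strand breaks, and holds PARP1 on DNA.

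The names of the 2 RAD18 sgRNAs place both on the + strand and 3 bases apart, so they share nearly all of their target and are not independent of each other. They are called sgRNA 1 (position 9005097 in its name) and sgRNA 2 (position 9005100), and the genome build behind those positions is not given in the sources used here. In the library, 20 of 543 genes had sgRNAs as close as this, and the median spacing was 62 bases. In the RefSeq annotation of GRCh38.p14, RAD18 lies on the minus strand of chromosome 3 from 8877075 to 8963472, and the next protein-coding gene upstream is SRGAP3, 17119 bases away. The 250 bases before its start are printed because CRISPR interference acts around this stretch. They lie at chr3:8963473-8963722 on the minus strand, and capitals mark the 50 bases next to the start site.
RAD18 promoter: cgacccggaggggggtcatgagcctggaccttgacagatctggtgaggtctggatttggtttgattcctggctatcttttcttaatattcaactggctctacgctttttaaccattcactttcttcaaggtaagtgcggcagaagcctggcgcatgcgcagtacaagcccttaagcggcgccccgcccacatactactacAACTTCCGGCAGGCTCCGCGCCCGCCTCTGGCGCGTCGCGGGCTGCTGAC
The sgRNA sequences were not in the tables used here, so whether the sgRNAs lie inside or outside this stretch is not known.

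The libraries held 182.6 to 460.7 megareads, with a median of 100 to 258 reads per construct. RAD18 constructs took 0.32% to 0.44% of the reads, and those with a non-targeting partner held 44242 to 139513 reads per library. At T0, RAD18 constructs stood at 0.01 on the log2 scale relative to pairs of non-targeting sgRNAs, against a median of -0.11 over the 543 genes. A mean of at least 30 reads over the T0 libraries was reached by 4499 RAD18 constructs and missed by 61, which were left out of the pair scores.

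RAD18 knockdown alone was mildly depleted without drug and clearly depleted by niraparib. Relative to non-targeting pairs, its log2 level at the niraparib endpoint was -0.66 and -0.61 in 2022 and -0.64 and -0.64 in 2023. At the reference endpoint it was -0.24 and -0.13 in 2022 and -0.15 and -0.14 in 2023, and at T0 it was 0.03, 0.02, -0.01 and 0.01 in the same cultures. The 3 arms did not overlap: every niraparib value was lower than every reference value, and every reference value was lower than every T0 value. The sgRNAs started apart and moved in parallel. Constructs of sgRNA 1 stood between -0.39 and -0.33 in niraparib, between 0.03 and 0.15 in reference and between 0.28 and 0.32 at T0. Those of sgRNA 2 stood at -0.96 or lower in niraparib, between -0.57 and -0.48 in reference and between -0.36 and -0.34 at T0.

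The growth phenotype, reference endpoint over T0, asks what RAD18 knockdown does without drug. It was -0.27 and -0.15 in 2022 and -0.14 and -0.15 in 2023, with a mean of -0.18 ± 0.06 (SD, n = 4 cultures). The first 2022 culture lay apart from the other 3, and without it the value was -0.15. BARD1 knockdown was also lowest there, with a growth of -2.06 against -1.13, -1.09 and -1.07 in the other 3 cultures, and the part of this culture in the RAD18 value was not tested. In edgeR's quasi-likelihood test the log2 change was -0.18 (SE 0.02) with an adjusted p of 0.0001003, measured against non-targeting sgRNAs. This direction holds relative to non-targeting sgRNAs only: scaled to the bulk of the genes, RAD18 was higher, at 0.28 with TMM and 0.21 with median-of-ratios scaling, since the median gene itself stood at -0.46. Lower growth was called for 81% of the 543 genes, and 374 genes had a lower value than RAD18, so the depletion of RAD18 was among the mild ones in the library.

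The niraparib response, niraparib endpoint over reference endpoint of the same culture, asks whether loss of RAD18 sensitises cells to the drug. RAD18 stood at -0.42 and -0.48 in 2022 and at -0.49 and -0.50 in 2023, a mean of -0.48 ± 0.04 (SD, n = 4 cultures). The fitted log2 change was -0.48 (SE 0.02) with an adjusted p of 1.767e-06 in edgeR's quasi-likelihood test, and it stayed below 0 under every scaling tried. Sensitisation was called for 35.7% of genes and protection for 44.2%, and only 53 of the 543 genes had a lower response than RAD18. The 55 non-targeting sgRNAs ranged from -0.09 to 0.05 in the same contrast. Niraparib endpoint over T0 was -0.65 (SE 0.02, edgeR adjusted p = 6.609e-08), where 82.1% of genes were called lower.

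The response did not differ detectably between screens. It was -0.50 in 2023 and -0.45 in 2022, and the 2023 minus 2022 difference was -0.05 (SE 0.04, edgeR adjusted p = 0.529), in a contrast that called 0.368% of genes. For growth the same difference was 0.06 (edgeR adjusted p = 0.298), where 31.1% of genes were called.

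Both RAD18 sgRNAs gave the response. For sgRNA 2 it was -0.48 ± 0.04 and for sgRNA 1 -0.47 ± 0.04 (SD, n = 4 cultures), a difference of -0.01 ± 0.01 with a two-sided exact sign-flip p of 0.375. For growth, sgRNA 2 was at -0.15 ± 0.05 and sgRNA 1 at -0.20 ± 0.06, and sgRNA 1 was the lower of the 2 in 4 of 4 cultures, for which the exact test gave the smallest p that 4 pairs allow, a p above the threshold. The position in the construct made little difference: the response averaged -0.47 ± 0.02 with RAD18 first and -0.48 ± 0.05 with RAD18 second.

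The depletion was also shared by all non-targeting partners. Over T0, RAD18 with each of the 55 non-targeting sgRNAs ran from -0.89 to -0.44 in niraparib, with a median of -0.65, and from -0.40 to -0.02 in reference, with a median of -0.19. The 4 constructs with RAD18 sgRNAs on both sides rested on 76 to 272 reads at T0 and were noisy. With sgRNA 2 on both sides the response was -0.67 ± 0.20, with sgRNA 1 on both sides -0.44 ± 0.36, and with the 2 different sgRNAs -0.19 ± 0.44 in one order and -0.16 ± 0.38 in the other (SD, n = 4 cultures).

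In the authors' deposited tables, where values are divided by a constant per replicate, the median response of RAD18 with a non-targeting sgRNA was -0.222 and -0.200 in 2022 and -0.177 and -0.158 in 2023. These medians were below 0 in 4 of 4 cultures, as in the values computed from the counts. Those tables hold 4416 of the RAD18 constructs in 2022 and 4307 in 2023.

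The genes whose 8 single values, growth and response in 4 cultures, lay nearest to those of RAD18 were FANCL, STRA13, FAM19A2, FANCE and RFC2. The Euclidean distance was 0.083 for FANCL, the E3 ligase of the Fanconi anaemia core complex, against a median of 1.27 over all genes. FANCL had a growth of -0.15 and a response of -0.45, and STRA13, a histone-fold protein that works with FANCM, had -0.22 and -0.52. The other genes of the PCNA ubiquitin pathway in the library gave small responses except WDR48: the response was -0.41 ± 0.02 for WDR48, -0.06 ± 0.04 for PCNA, 0.06 ± 0.03 for ZRANB3 and between 0.01 and 0.02 for HLTF, RNF168 and MAD2L2 (SD, n = 4 cultures). PCNA is essential for replication, yet its growth value was -0.04, and how far its sgRNAs lowered the protein was not measured.

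A pair score measured how far knockdown of both genes departed from what the 2 single knockdowns gave. For each sgRNA, the log2 endpoint over T0 of its constructs was fitted as a curve on the single phenotypes of the partners, and the score is the distance from that curve, averaged over both genes' curves, sgRNA pairs and orders. A score below 0 means fewer cells than the curve gives, and one above 0 more. RAD18 scores were tested over 4 cultures with limma, and p-values were adjusted over all 147044 gene pairs.

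More RAD18 interactions were called in niraparib than in reference. In niraparib 66 of 542 partners were called lower, or 12.2%, against 2.63% of all gene pairs, and 7 were called higher, or 1.29%, against 2.5% of all pairs. Only 21 genes had more lower calls than RAD18, and the median gene had 6. In reference 5 partners were called lower, or 0.923%, where 1.28% of all pairs were. There 1 was called higher, or 0.185%, where 1.07% of all pairs were. The number of calls in the 2 arms was not itself compared by a test. The difference of the scores, called for 11 of 542 partners, is given further below. Leaving out 1 culture left 20 to 27 calls in niraparib and 1 to 2 in reference, and 17 of the 73 niraparib calls held without each culture in turn.

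The member of the pathway with a strong interaction was WDR48, the cofactor that activates USP1 to remove ubiquitin from PCNA and FANCD2. Its score with RAD18 in niraparib was 0.81 and 0.75 in 2022 and 0.72 and 0.68 in 2023, and in reference 0.67, 0.43, 0.56 and 0.59. Both were called higher, at 0.74 (limma adjusted p = 0.00192) in niraparib and 0.56 (limma adjusted p = 0.0098) in reference, and the difference of 0.18 between arms was not (limma adjusted p = 0.29). The levels show how large this is. In niraparib, cells with both knockdowns stood at -0.77 ± 0.10 over T0, against -1.13 ± 0.06 for WDR48 alone and -0.65 ± 0.03 for RAD18 alone. In reference they stood at -0.27 ± 0.07, against -0.70 ± 0.06 for WDR48 alone and -0.18 ± 0.06 for RAD18 alone (SD, n = 4 cultures). In both arms the pair was thus nearer to RAD18 alone than to WDR48 alone, in 4 of 4 cultures. All 4 sgRNA pairs scored above 0, from 0.59 to 1.01 in niraparib and from 0.43 to 0.70 in reference. The call in niraparib held without each culture in turn, and the call in reference held in 2 of 4 such fits, with adjusted p up to 0.052.

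The other 5 measured members of the PCNA ubiquitin and translesion list showed no called interaction with RAD18 in either arm. In niraparib the scores were 0.11 ± 0.05 for MAD2L2, a subunit of the translesion polymerase zeta and of shieldin, 0.01 ± 0.15 for RNF168, a histone ubiquitin ligase, and 0.00 ± 0.09 for HLTF. They were -0.04 ± 0.09 for ZRANB3, a fork-remodelling translocase that binds modified PCNA, and -0.06 ± 0.11 for PCNA (SD, n = 4 cultures). In reference all 5 lay between -0.02 and 0.02. Signs this close to 0 changed between the processing alternatives for HLTF, RNF168 and ZRANB3 in both arms and for MAD2L2 in reference, so no direction is given for these. The list's median in niraparib was 0.01, against -0.05 over all partners.

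AUNIP, a protein that brings the nuclease cofactor CtIP to DNA ends in resection, had the lowest score of any partner. In niraparib it was -1.37 and -1.51 in 2022 and -1.56 and -1.56 in 2023, a mean of -1.50 (limma adjusted p = 0.000444), and in reference it was -0.12 ± 0.06 (limma adjusted p = 0.194). The 8 constructs of this pair held 627, 692, 390 and 304 reads in the niraparib libraries, 4718, 5534, 2604 and 2474 in the reference libraries and 2830, 2954, 1942 and 1892 at T0. On the level scale, both knockdowns together stood at -3.17 ± 0.06 over T0 in niraparib, against -1.19 ± 0.04 for AUNIP alone, -0.65 ± 0.03 for RAD18 alone and -1.84 for the plain sum of the 2. In reference the pair stood at -0.30 ± 0.16, against -0.18 for the plain sum (SD, n = 4 cultures). The 4 sgRNA pairs agreed closely in niraparib, between -1.58 and -1.42. The call held in every alternative and without each culture in turn.

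Among homologous recombination genes, 8 of 27 were called lower in niraparib, or 29.6% against 12.2% of all RAD18 partners, and 0 higher, with a list median of -0.16 against -0.05 over all partners. AUNIP was followed by BRCA1, the tumour suppressor of recombination, with -0.35 and -0.62 in 2022 and -1.03 and -1.09 in 2023. The mean for BRCA1 was -0.77 (limma adjusted p = 0.0232), and both 2023 values were lower than both 2022 values. RAD54L, a DNA translocase of recombination, was at -0.59 ± 0.09 (limma adjusted p = 0.00476), and BRCA2, a mediator of recombination, at -0.47 ± 0.17 (limma adjusted p = 0.0181). RBBP8 (CtIP), EXO1, XRCC2 and RAD51D were also called lower, between -0.42 and -0.22. The BRCA2 score was -0.74 with RAD18 sgRNA 1 and -0.20 with sgRNA 2. The RBBP8 score was -0.06 with 1 of its sgRNAs and -0.78 with the other. Few reads were left for both in the niraparib libraries, 155 to 322 for BRCA2 and 150 to 239 for RBBP8 over 8 constructs each. Of the 8 calls 2, AUNIP and RAD54L, held without each culture in turn, BRCA1 and BRCA2 held in 1 of 4 such fits, and the others in 0. Against the plain sum of the singles 3 of the 8 were called, AUNIP, RAD54L and EXO1. There BRCA2 and RBBP8 scored 0.08 and 0.04, above 0, and XRCC2 and RAD51D scored -0.04 and -0.03.

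BARD1, the obligate partner of BRCA1, gave the lowest RAD18 score without drug. In niraparib it was -0.24 and -0.27 in 2022 and -0.41 and 0.06 in 2023, a mean of -0.22 (limma adjusted p = 0.174), and in reference it was -0.99, -0.88, -0.88 and -0.90, a mean of -0.91 (limma adjusted p = 0.00471). In niraparib the pair stood at -5.50 ± 0.21 over T0, against -5.21 ± 0.03 for BARD1 alone. In reference the pair stood at -2.40 ± 0.55, against -1.33 ± 0.48 for BARD1 alone and -0.18 ± 0.06 for RAD18 alone (SD, n = 4 cultures). Few reads were left in niraparib: 105, 110, 76 and 63 over the 8 constructs in the niraparib libraries, against 546, 1029, 565 and 472 in the reference libraries. The score in niraparib is therefore measured close to the floor of the counts. BARD1 in reference was called in every alternative and without each culture in turn.

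The other reference calls were C19orf40 at -0.42 ± 0.09 (limma adjusted p = 0.0194), BRCA1 at -0.36 ± 0.06 (limma adjusted p = 0.0194), FANCM at -0.33 ± 0.03 (limma adjusted p = 0.0194) and TOP3A at -0.26 ± 0.06 (limma adjusted p = 0.0398). FANCM is the translocase that anchors the Fanconi core complex to DNA, C19orf40 (FAAP24) is its partner, and TOP3A is the topoisomerase of the complex with BLM. Each of the 4 was below 0 in 4 of 4 cultures, but none kept its call when 1 culture was left out.

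Fanconi anaemia genes, whose products place a single ubiquitin on FANCD2 and FANCI in the repair of crosslinks, held many of the lower calls in niraparib. Of 16 measured members 9 were called lower, or 56.2% against 12.2% of all partners, and 1, WDR48, higher, and 15 of 16 lay below 0, with a median of -0.27 against -0.05 over all partners. C19orf40 scored -0.77 and -1.08 in 2022 and -0.74 and -1.16 in 2023, a mean of -0.94 (limma adjusted p = 0.00524). Knockdown of both C19orf40 and RAD18 stood at -3.27 ± 0.21 over T0 in niraparib, against -2.64 for the plain sum of the single knockdowns. FANCM was at -0.65 ± 0.13, STRA13 at -0.55 ± 0.07, UBE2T, the E2 enzyme of the pathway, at -0.55 ± 0.18 and the core subunit FANCF at -0.54 ± 0.18 (SD, n = 4 cultures). FANCG, FANCL, FANCE and FANCC followed between -0.31 and -0.27. FANCA, FANCD2 and FANCB were not called, at -0.12 ± 0.05, -0.08 ± 0.10 and -0.11 ± 0.29. Of the 9 lower calls 3, C19orf40, FANCM and STRA13, held without each culture in turn, UBE2T held in 2 of 4 such fits, FANCF in 1 and the others in 0. Against the plain sum of the singles 5 of the 9 were called, and FANCG, FANCL, FANCE and FANCC lost their calls, between -0.14 and -0.07. FANCA and FANCD2 were called higher there, at 0.20 and 0.18.

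Genes of PARP signalling and single-strand break repair split into 2 directions. Of 11 measured members 7 were called lower, or 63.6% against 12.2% of all partners, and 1, PARP1, higher, where 1.29% of all partners were. The list median was -0.35, against -0.05 over all partners. LIG3, the ligase that seals single-strand breaks, was at -0.59 ± 0.10 (limma adjusted p = 0.00561), POLB, the gap-filling polymerase of base excision repair, at -0.53 ± 0.10 (limma adjusted p = 0.00665), and XRCC1, their scaffold, at -0.38 ± 0.09 (limma adjusted p = 0.0138). DNPH1, which clears a damaged nucleotide, was at -0.55 ± 0.22, C4orf27 (HPF1), the PARP1 cofactor, at -0.46 ± 0.17 and LIG1 at -0.35 ± 0.14 (SD, n = 4 cultures). POLB knockdown alone stood at -1.95 ± 0.18 over T0 in niraparib and at 0.02 ± 0.02 in reference, and the pair with RAD18 stood at -2.81 ± 0.26 in niraparib. Of the 7 lower calls 2, LIG3 and POLB, held without each culture in turn, XRCC1 held in 2 of 4 such fits, DNPH1 and C4orf27 in 1 and LIG1 in 0. Against the plain sum 3 of the 7 were called, LIG3, POLB and C4orf27, while DNPH1 and LIG1 were at -0.24 and -0.11 and XRCC1 at 0.04.

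PARP1, the target of the drug, scored 0.54 and 0.41 in 2022 and 0.55 and 0.56 in 2023 with RAD18 in niraparib, a mean of 0.52 (limma adjusted p = 0.00568), and -0.10 ± 0.05 in reference (limma adjusted p = 0.296). PARP1 knockdown alone raised the level in niraparib to 1.38 ± 0.16 over T0, and the pair stood at 1.11 ± 0.20, against 0.74 for the plain sum. Adding RAD18 knockdown to PARP1 knockdown thus took 0.28 off the niraparib level, where RAD18 knockdown alone took off 0.65.

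The 53BP1 axis, which protects DNA ends from resection, held 3 of the 7 higher calls. Of its 8 measured members 3 were called higher, where 1.29% of all partners were, and 1 lower, or 12.5% against 12.2% of all partners. TP53BP1 scored 0.38 and 0.36 in 2022 and 0.44 and 0.54 in 2023, a mean of 0.43 (limma adjusted p = 0.00971), and the shieldin subunits C20orf196 (SHLD1) and FAM35A (SHLD2) scored 0.26 ± 0.03 and 0.24 ± 0.04. In niraparib, cells with knockdown of TP53BP1 and RAD18 stood at -0.17 ± 0.07 over T0, against 0.02 ± 0.03 for TP53BP1 alone and -0.65 ± 0.03 for RAD18 alone (SD, n = 4 cultures). The RIF1 score went the other way, at -0.31 ± 0.05 (limma adjusted p = 0.0174), but its call held in 1 of 4 fits without a culture and not against the plain sum, at -0.12. The 4 other members, DYNLL1 among them at -0.17 ± 0.14, were not called. The remaining higher calls were XRCC6 (Ku70) at 0.30 ± 0.15 and OBFC1 (STN1) at 0.26 ± 0.05. The XRCC6 score was 0.55 with 1 of its sgRNAs and 0.06 with the other, and XRCC5, also an end-joining gene, was not called, at -0.10 ± 0.15. C20orf196, FAM35A, XRCC6 and OBFC1 lost their calls when any 1 culture was left out, whereas TP53BP1 kept its call.

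The TRAIP ubiquitin ligase, which unloads the replicative helicase, scored -0.73 and -0.90 in 2022 and -0.70 and -0.98 in 2023, a mean of -0.82 (limma adjusted p = 0.00317). In niraparib the pair stood at -2.24 ± 0.15 over T0, against -0.95 ± 0.04 for TRAIP alone and -1.59 for the plain sum (SD, n = 4 cultures). DENR and MCTS1, which form 1 complex in the recycling of ribosomes and in reinitiation of translation, scored alike, at -0.62 ± 0.17 and -0.61 ± 0.16 (SD, n = 4 cultures). Checkpoint genes of the ATR and 9-1-1 list were called lower in 5 of 13 cases: TOPBP1 at -0.42, ATRIP at -0.38, ETAA1 at -0.36, RAD17 at -0.35 and RAD9A at -0.29. This was 38.5% of the list, against 12.2% of all partners. None of the 5 held without each culture in turn: ATRIP held in 3 of 4 such fits, TOPBP1 and RAD17 in 1, and ETAA1 and RAD9A in 0. Against the plain sum ATRIP and ETAA1 were called lower, TOPBP1 and RAD17 lost their calls, at -0.08 and -0.06, and RAD9A was called higher, at 0.15. Of 7 clamp loader genes 3, or 42.9%, were called lower, CHTF18 at -0.46, RAD17 at -0.35 and RFC4 at -0.28. Of these CHTF18 alone held without each culture in turn and against the plain sum, where RFC4 scored 0.10. In the SMC5-SMC6 list SMC6 was called at -0.47 ± 0.13 and NDNL2 was not at -0.48 ± 0.39. The call of SMC6 held in 3 of 4 fits without a culture and not against the plain sum, at -0.12. Of 6 fork protection genes 2, or 33.3%, were called lower, ETAA1 and WDHD1 at -0.33, neither of which held without each culture. WDHD1 was called higher against the plain sum, at 0.19, and of 7 nuclease genes 0 were called. The list medians in niraparib ran from -0.48 for the 2 SMC5-SMC6 members to 0.05 for the 6 end-joining members and 0.06 for the 8 members of the 53BP1 list.

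The partners with lower scores were mostly genes that sensitised cells to niraparib by themselves. Their median single response was -0.44, against 0.01 over all partners, and 62 of 66, or 93.9%, were called as sensitisers alone, against 35.6% of all partners. The curve allows for the partner's endpoint over T0, in which growth and drug response are not separated. It does not take the single response as such, and how far that response enters the scores was not tested. The choice of curve also matters here. Against the plain sum of the singles, 35 partners were called lower and 173 higher, and 40 of the 73 calls were kept. The share of all gene pairs called against the plain sum is not given, so these counts may not be particular to RAD18. The 9 lowest scores in niraparib, AUNIP, C19orf40, TRAIP, BRCA1, FANCM, DENR, MCTS1, RAD54L and LIG3, stayed below 0 against the plain sum, and of these BRCA1 lost its call, at -0.29.

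The differential score, niraparib minus reference in the same culture, tests which RAD18 interactions changed with the drug. It was lower for 8 partners and higher for 3 of 542, against 0.252% lower and 0.216% higher over all pairs. AUNIP led at -1.38 ± 0.14 (limma adjusted p = 0.00317), and TRAIP at -0.63, MCTS1 at -0.60, POLB at -0.55, STRA13 at -0.52, LIG3 at -0.50, RAD54L at -0.49 and BAP1, a deubiquitinase, at -0.46 followed. The higher ones were BARD1 at 0.70, PARP1 at 0.61 and TP53BP1 at 0.43. For BARD1 the score was -0.22 in niraparib, close to the count floor given above, and -0.91 in reference, whereas for PARP1 and TP53BP1 it was a positive score in niraparib. AUNIP kept its call in every alternative. Without any 1 culture it was the only RAD18 pair called, and with a term for the screen 3 were. Fitted without the pairing of the arms of a culture, 23 were called. Between the screens, 0 of 542 RAD18 pairs differed by limma in niraparib, with 23 at an unadjusted p under 0.05, and 0 of all gene pairs did.

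Across its partners, the whole RAD18 profile of scores was most like those of Fanconi anaemia genes. In niraparib the highest Pearson r over up to 541 shared partners was 0.73 with C19orf40, then 0.71 with FANCA, 0.69 with UBE2T, 0.69 with FANCD2 and 0.66 with FANCE, against a median of 0.05 over 542 genes. In reference it was 0.45 with C19orf40, 0.38 with FANCB, 0.38 with MOSPD2, 0.37 with FANCA and 0.36 with FANCF, against a median of 0.01. The sgRNAs named for MOSPD2 lie 424 to 466 bases from those of FANCB. The profiles share the cells, the partners and the libraries, so these correlations are descriptions. In niraparib C4orf27 was at rank 7, with r = 0.65, and POLB at rank 10, with r = 0.63. Both ranked above the Fanconi members FANCL at 16, FANCC at 17, FANCM at 18 and C17orf70 at 89. The most opposite profile in niraparib was that of PARP1, with r = -0.57. Among the PCNA list, r in niraparib was 0.50 with WDR48, 0.22 with PCNA, 0.15 with RNF168, 0.07 with HLTF, -0.10 with ZRANB3 and -0.32 with MAD2L2. FANCA and FANCD2, which had no called interaction with RAD18, were thus among the genes whose other interactions were most like it.

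The profile was better measured in niraparib than in reference. Between sgRNA 1 and sgRNA 2, r over 539 partners was 0.73 in niraparib and 0.37 in reference, and between cultures it was 0.59 to 0.66 in niraparib and 0.15 to 0.35 in reference. The SD of the 542 scores was 0.19 in niraparib and 0.10 in reference. The order of likeness in reference rests on weaker data: 3 of the 5 genes named there stayed among the first 5 with sgRNA 1 alone, and 3 to 4 did without 1 culture.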

How the data were processed

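The authors deposited a read count for every construct and library, unnormalised, from PCR of the sgRNA loci in genomic DNA per the labels' protocols; no molecular identifiers were named. Bowtie2 2.3.4.1 is named in the submitters' processing notes. The authors' deposited log2 phenotypes per replicate, for constructs that passed their filter, were recomputed from the counts and served as a description only.

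Single phenotypes used counts summed over the 220 constructs of a gene with non-targeting sgRNAs, with library sizes from the 3025 constructs with 2 non-targeting sgRNAs. The quasi-likelihood model of edgeR 4.0.16 (R 4.3.3) took all 12 libraries, the culture as block and the arms of each screen as terms (4 residual degrees of freedom), and Benjamini-Hochberg adjustment over 598 genes and non-targeting sgRNAs. The pairing of arms rests on the labels' statement that each culture was divided; deviations of replicates over 543 genes correlated at 0.491 and 0.209 between niraparib and reference and at -0.02 to 0.086 with T0.

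Pair scores used log2((endpoint + 1)/(T0 + 1)) minus the median of non-targeting pairs, for constructs with a mean of at least 30 T0 reads, and curves of degree 2. limma 3.58.1 (lmFit, eBayes) tested the scores of 4 cultures against 0; calls are at an adjusted p under 0.05. On simulated data, the single fit recovered 100% of response changes of 0.25 and 0.5 among 598 features. That simulation gave every feature the same dispersion. Its share therefore does not describe genes with a wider spread, such as BRCA2, whose response had an SE of 0.18. The pair fit recovered 0% of differential scores of 0.5 and 46.6% of those of 1 among 147153 pairs. The spread in the pair simulation was a setting and was not estimated from the data. The real fit called a RAD18 differential score as small as 0.43, for TP53BP1, and did not call one of -0.60, for DNPH1. How far the simulated shares describe the real pair fit was not tested. Uncalled pairs may still differ.

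Named partners were those called with 1 sign in 4 cultures (at most 8 per direction), list members, all PCNA list members, and the nearest 5 genes by profile and single values. Members, lists and rules were chosen with earlier results of these data known. Values of some list members are not reported here.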

Additional observations from a re-analysis of the deposited data

Results flagged for a closer look

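The RAD18 score differed between niraparib and reference for 11 partners by limma, which tested the difference in the same culture (adjusted over 147044 pairs). Lower in niraparib were AUNIP (-1.38), TRAIP (-0.63), MCTS1 (-0.60), POLB (-0.55), STRA13 (-0.52), LIG3 (-0.50), RAD54L (-0.49) and BAP1 (-0.46). Higher in niraparib were BARD1 (0.70), PARP1 (0.61) and TP53BP1 (0.43). Each difference had the same sign in 4 of 4 cultures, and AUNIP was the only one called without each culture in turn. BARD1 rested on 63 to 110 reads per niraparib library over 8 constructs. For BAP1 the niraparib score was -0.84 with 1 of its sgRNAs and -0.08 with the other.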

How the results depend on the processing

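The niraparib response of RAD18 stayed called under all alternatives run, at -0.49 to -0.43 on the log2 scale. It was -0.78 when niraparib over T0 was rescaled by the constants of the authors' deposited tables. On that scale the median gene stood at -0.20 and 93 genes were lower than RAD18, against 0.01 and 53 in the main fit. The sources used here do not say what those constants are. Growth turned to 0.28 with TMM and 0.21 with median-of-ratios scaling (0.30 for sgRNA 1 and 0.35 for sgRNA 2 with TMM), which centre on genes whose median growth was -0.46. The screen difference of the response, called in no setting, turned to 0.02 with median-of-ratios scaling. Without the replicate block, growth was -0.18 and response -0.48, and differential calls numbered 23 against 11; the block changed no other call.

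Calls for niraparib, reference and differential scores were 73, 6 and 11. With 10 added to each count they were 113, 14 and 39, against the plain sum of the singles 208, 31 and 68, and with the spread as a trend on reads, chosen after seeing the data, 120, 15 and 81, where all pairs gave 9.58%, 6.59% and 3.02%. That share is not given for the other alternatives, so their counts are not set against all pairs. Reference calls were 10 with a curve of degree 1, 11 with the first RAD18 sgRNA alone and 13 with RAD18 in the second position; differential calls were 7 with the first sgRNA alone and 3 with the screen as a term. Leaving out each culture gave 20 to 27, 1 to 2 and, in every case, 1. Against the plain sum, the niraparib scores of BRCA2 (0.08), FANCA (0.20), FANCD2 (0.18), RAD9A (0.15), RBBP8 (0.04), RFC4 (0.10), WDHD1 (0.19) and XRCC1 (0.04) were above 0, and 12 of the 73 calls changed sign in all. Of the 5 reference profile genes, 3 stayed with the first RAD18 sgRNA alone, and 3 to 4 without each culture. The causes were not tested.

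Depth limits pairs with strong depletion, where few reads remain, and 61 RAD18 constructs under a mean of 30 T0 reads were not scored.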
